A study of Drosophila melanogaster with 12 samples.

Results

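The genes described here make, carry or sense 4 neurotransmitters of the fly head: Gad1 and Lcch3 for GABA, GluClalpha and Eaat2 for the acidic amino acid transmitters, Hdc for histamine and nAChRbeta1 for acetylcholine. They were taken by gene symbol from the probe annotation. All 6 were found, on 7 of the 13824 probes, among 6793 genes that probes name by a single symbol. Gad1 has 2 probes and the others have 1. The study compared head RNA of unmated Oregon-R wild-type males of the fruit fly Drosophila melanogaster that ate drugs with that of males kept on normal food for the same time. The treated groups were given 8 mg/ml pentylenetetrazole (PTZ) and 5 mg/ml levetiracetam (LEV) for 12 h, both drugs for 2 days, or both drugs for 4 days followed by PTZ alone for 3 days, up to day 7. Each of 12 arrays, 4 per time, carried the RNA of 1 treated pool of heads and of the control pool from its parallel set, with 30 flies per vial. In the design text the last 3 days are on LEV in 1 place, while the treatment protocols of all 7 d arrays give PTZ. For 2 arrays (2 d replicate 4 and 7 d replicate 1) the source names list an untreated sample in either channel, while their treatment protocols name 1 treated and 1 control channel, which was followed here. Age is labelled as 3 to 4 days, and the growth protocol adds 10 to 11 days of keeping, so the true age is not settled.

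GABA is the main inhibitory transmitter of the insect brain and opens chloride channels, and PTZ is known as a blocker of such channels. Acetylcholine is the main fast excitatory transmitter of the insect brain, glutamate drives the body muscles and also opens chloride channels in insects, and histamine is the transmitter of the photoreceptors. LEV is known from mammals to bind a synaptic vesicle protein. Synthesis enzymes, receptors and uptake carriers set how much of each transmitter is made, sensed and cleared.

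The values are log2 ratios of the 2 dyes on an array, so they show the difference between treated and control RNA and not the level of either. They are given relative to the median of all probes on the same array (centred). Whole heads were used, so fewer cells of a type and less RNA per cell cannot be told apart. On replicates 1 and 2 of each time the treated RNA carried Cy5, and on replicates 3 and 4 it carried Cy3 (dye swap). The sources used here do not say whether the ratios are Cy5 over Cy3 on every array or treated over control. Dye-swapped arrays were therefore turned in sign for the main values, which are treated over control if the ratios are Cy5 over Cy3, and the values as deposited are given beside them. The Cy5-treated arrays read the same way in both cases. Between 1394 and 14042 of 27648 spots had a value on an array, with the most on 7 d replicate 4 and 12 h replicate 4.

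Of the 90 transmitter genes looked for, 43 matched a probe, and 31 of these had a value on at least 1 array. Eaat2 was measured on all 12 arrays. Hdc and nAChRbeta1 each had 5 arrays, 4 of them at 12 h. The first Gad1 probe had 5 arrays and the second had 2. GluClalpha had 4 arrays and Lcch3 had 2. At 2 d, Eaat2 was the only 1 of the 6 genes with a value. The array 7 d replicate 4 alone gave 27 of the 43 matched genes a value on at least 1 of their probes (62.8%). Of all probes, counted singly and not by gene, 51.4% had a value there. The other 7 d arrays gave 2 to 4 genes a value.

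**Figure D1:**
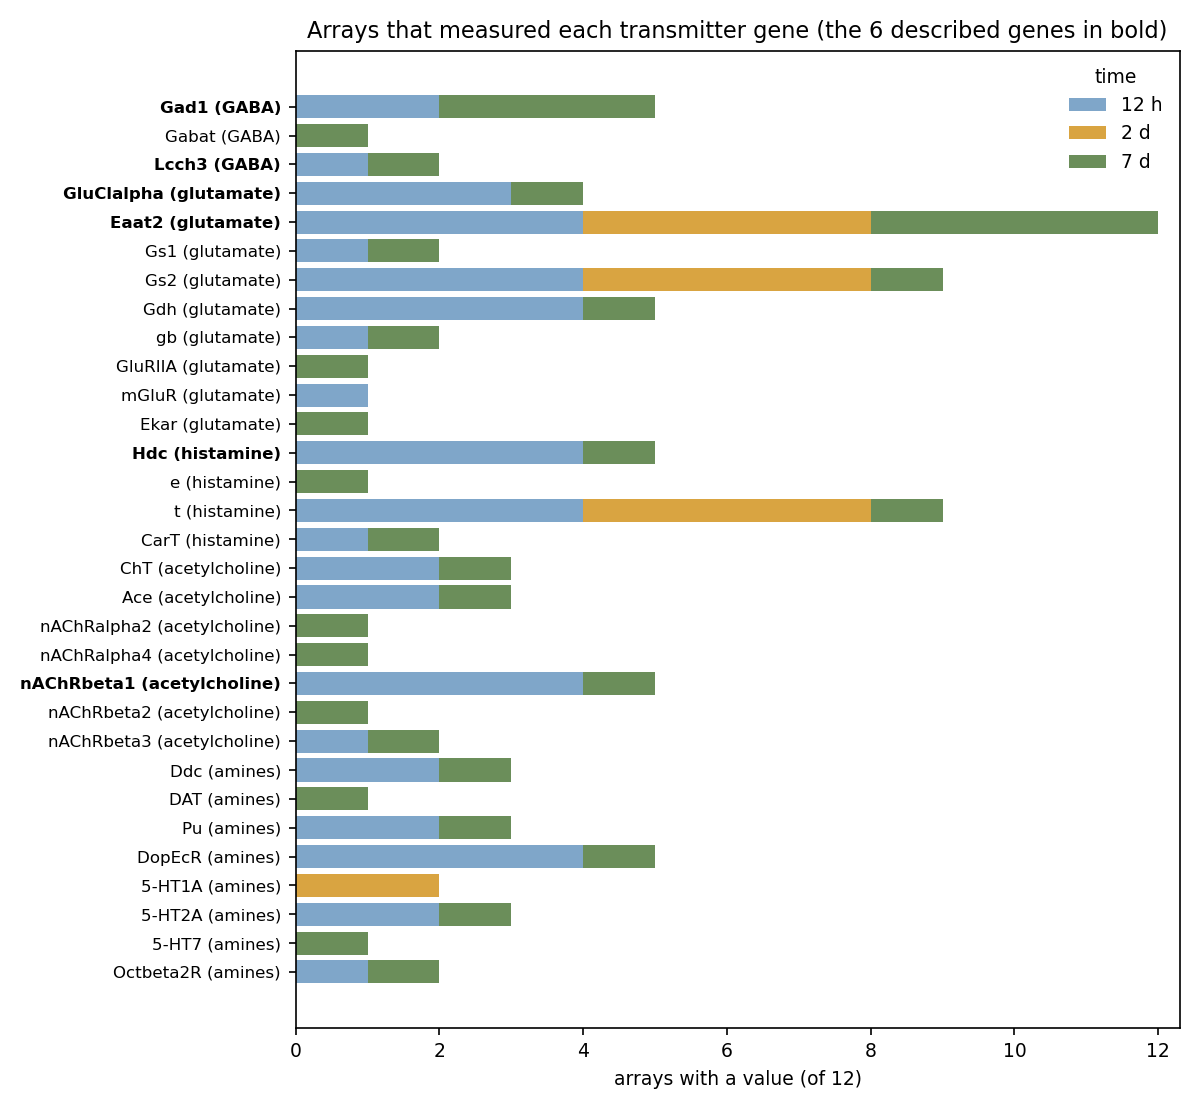
Number of arrays with a value (x axis, of 12), stacked by time, for the best-measured probe of each transmitter gene that has a value (y axis, with its list in brackets). Eaat2 reaches 12 arrays, Gs2 and t reach 9, and most other genes have values at 12 h and 7 d only.

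Gad1, the glutamate decarboxylase that makes GABA, lay near 0 on Cy5-treated arrays and above 0 on most dye-swapped ones. At 7 d its first probe stood at centred log2 ratios of -0.06, 0.03 and 0.88 on replicates 1, 2 and 3. The mean was 0.28 ± 0.52 (SD, n = 3 arrays), which did not pass the test (adjusted p = 0.927 in limma). The high value was that of the dye-swapped array, and the 2 Cy5-treated arrays averaged -0.01. Their near-0 values average spots that lay far apart before centring. These read -0.34 and -1.14 on replicate 1 and -0.05 and -1.15 on replicate 2, around array medians of -0.67 and -0.63. On replicate 3 the spots read -0.31 and 0.05, and the array median was 0.74. Turned but not centred, replicate 3 stood at 0.13, so most of its 0.88 came with the centring. As deposited and centred, replicate 3 read -0.88 and the mean turned to -0.30 ± 0.50. Without centring, the mean was -0.40, and with the first spot only (centred and turned) it was 0.63. Without replicate 1, whose source names name no treated channel, it was 0.45 over 2 arrays. At 12 h the first probe stood at 0.05 on replicate 2 and 1.02 on dye-swapped replicate 3.

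The second Gad1 probe was measured only where the first was not, at -0.23 on 12 h replicate 4 and 0.53 on 7 d replicate 4. Both are dye-swapped arrays, so the signs turn as deposited. Joined to 1 value per array, a step chosen after the values were seen, the 2 Gad1 probes averaged 0.32 ± 0.49 over 7 arrays, with 5 above 0. As deposited the joined mean was -0.31 ± 0.50, with 4 of 7 below 0. An exact two-sided sign-flip permutation test gave p = 0.188 for the first and p = 0.203 for the second, where 0.0156 is the smallest this number of arrays allows. The spread between arrays was thus larger than the mean in both readings.

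Lcch3, a subunit of GABA-gated ion channels, had a value on the arrays with the most spots alone. It stood at 0.12 on 12 h replicate 4 and at 2.02 on 7 d replicate 4. Both arrays are dye-swapped, and as deposited the values read -0.12 and -2.02. On 7 d replicate 4 its 2 spots read -2.58 and -2.55 before centring, and 0.746% of that array's probes lay lower. A single array per time gives no replicate check, so this large ratio has no test.

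GluClalpha, a chloride channel opened by glutamate, was measured on 3 arrays at 12 h. Its centred ratios were 0.04 on replicate 1, -1.35 on replicate 2 and -0.22 on replicate 4. The mean was -0.51 ± 0.74 (SD, n = 3; adjusted p = 0.867 in limma). Replicate 2 was far below the other arrays. As deposited, replicate 4 read 0.22 and the mean was -0.36 ± 0.86, still below 0, and without centring the mean was -0.07. At 7 d the only array, dye-swapped replicate 4, gave 1.29, or -1.29 as deposited, with 2.90% of that array's probes lower. On 7 d replicate 4, Lcch3, GluClalpha, nAChRbeta1, Gad1 and Eaat2 were all below 0 as deposited, between -2.02 and -0.19. Of all probes on that array 50.0% were below 0, a share that centring on the median sets. It was 45.4% for probes measured on 1 or 2 arrays, 60.1% for those on 3 to 5 and 59.4% for those on 6 or more. Of the 21 other transmitter genes measured there by their main probe, 12 were below 0 as deposited. Among the receptor genes, Ekar (1.61), nAChRbeta3 (0.62), nAChRalpha4 (0.43) and nAChRbeta2 (0.145) were above 0. The receptor genes 5-HT2A (-0.33), 5-HT7 (-0.11), nAChRalpha2 (-0.09) and GluRIIA (-0.04) were below 0. Of the enzyme and carrier genes, Gs1 (-2.21), t (-1.24), Gdh (-0.84), ChT (-0.70), Gs2 (-0.69), Gabat (-0.65), Ace (-0.48) and Pu (-0.33) were below 0. The enzyme and carrier genes DAT (0.98), e (0.30), gb (0.25), Ddc (0.19) and CarT (0.15) were above 0. On the same array, the median of the 1127 probes measured on 6 or more arrays was -0.25 as deposited, and that of the 4847 probes measured on 1 or 2 arrays was 0.06. The part of this pattern in the values of the 5 genes was not tested.

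**Figure D2:**
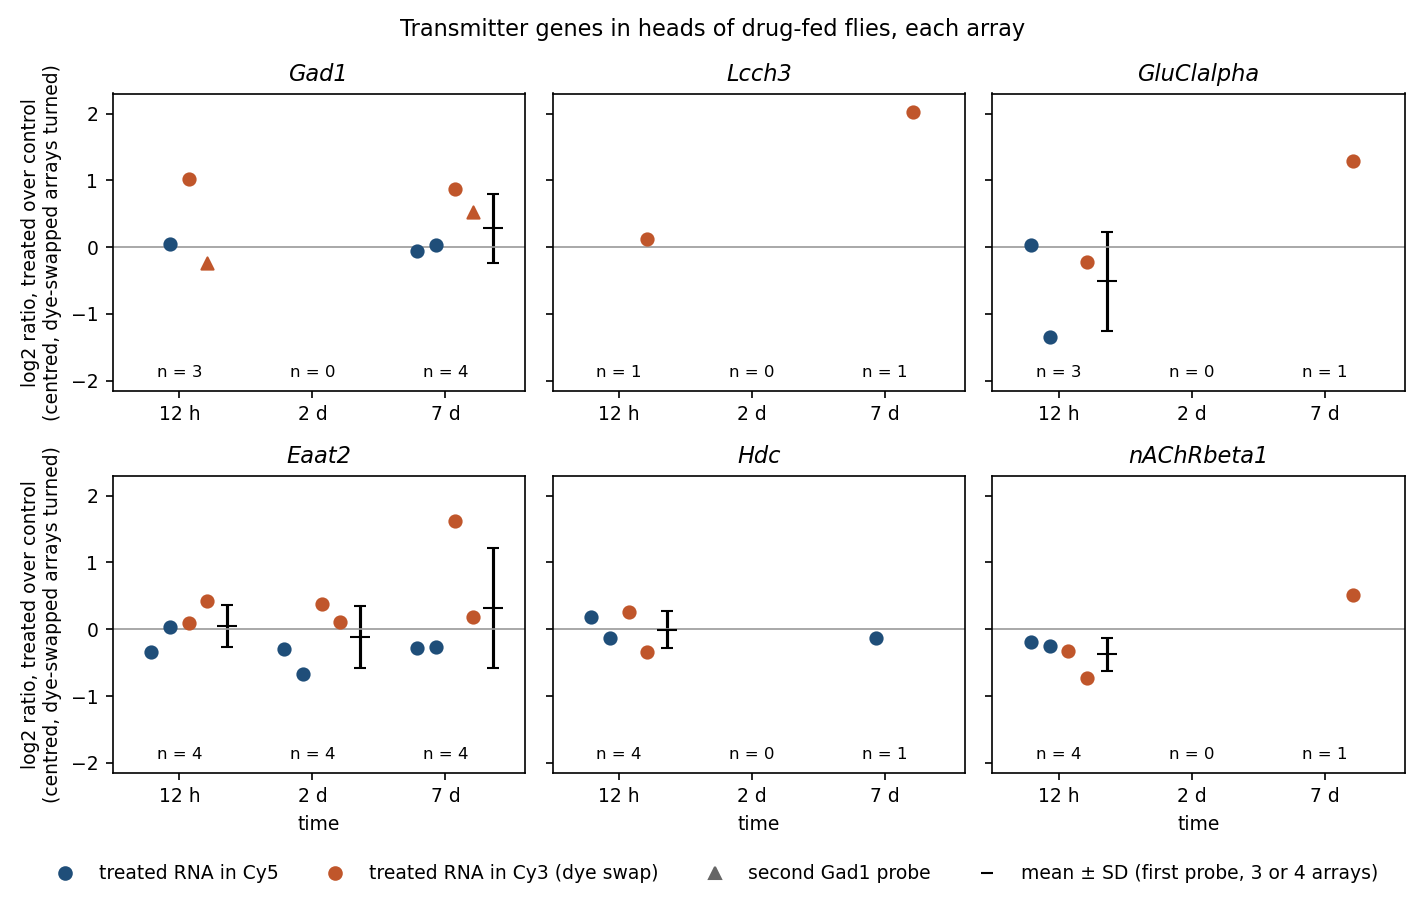
Centred log2 ratio, treated over control with dye-swapped arrays turned (y axis), by time (x axis) for the 6 genes. Each point is 1 array, blue with the treated RNA in Cy5 and orange with it in Cy3; triangles are the second Gad1 probe and bars are mean ± SD of the first probe over 3 or 4 arrays. The 2 d column holds Eaat2 points only, and the highest point is Lcch3 at 2.02.

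Eaat2, a membrane carrier of the excitatory amino acid transporter family that in the fly takes up aspartate and taurine, is the gene with a full record. At 12 h its centred ratios were -0.34, 0.03, 0.09 and 0.43 on replicates 1 to 4. At 2 d they were -0.30, -0.67, 0.38 and 0.11. At 7 d they were -0.28, -0.26, 1.62 and 0.19. At every time the Cy5-treated arrays were lower than the dye-swapped ones. The means were 0.05 ± 0.31 at 12 h, -0.12 ± 0.46 at 2 d and 0.32 ± 0.89 at 7 d (SD, n = 4 arrays each), and no time differed from another beyond the spread. From high to low the times ran 7 d, 12 h, 2 d, but 12 h, 2 d, 7 d as deposited and 12 h, 7 d, 2 d without centring. None passed against 0 (adjusted p = 0.976, 0.995 and 0.927 in limma). Without 7 d replicate 3 the 7 d mean was -0.12. On that array, the centred median as deposited was -0.296 for the 837 probes measured on 6 or more arrays. It was 0.50 for the 282 probes measured on 1 or 2 arrays. The part of this pattern in the Eaat2 value was not tested. Without the arrays whose source names name no treated channel, the mean was -0.19 ± 0.53 at 2 d and 0.51 ± 0.98 at 7 d (SD, n = 3 each), and 0.12 ± 0.63 over the 10 other arrays, or -0.42 ± 0.46 as deposited, with 9 of 10 below 0.

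Over all 12 arrays, which mix 3 drug schedules, Eaat2 averaged 0.08 ± 0.58 (SD), with 7 arrays above 0 (adjusted p = 0.977 in limma over 1156 probes, of which 0 passed and 4.76% had an unadjusted p under 0.05). The exact two-sided sign-flip permutation test gave p = 0.709. The record split by dye: the 6 dye-swapped arrays averaged 0.47, and the 6 Cy5-treated arrays averaged -0.30, with 5 below 0. Among 502 probes on all Cy5-treated arrays, 13.7% were below 0 on at least 5 of 6.

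As deposited, Eaat2 lay below 0 on 11 of 12 arrays, with a mean of -0.38 ± 0.43 (SD). The means were -0.20 ± 0.21 at 12 h, -0.36 ± 0.23 at 2 d and -0.59 ± 0.69 at 7 d. At 7 d the values before centring were -0.95, -0.89, -0.87 and -0.74 on replicates 1 to 4. The array median was 0.74 on replicate 3 and between -0.67 and -0.55 on the others. All 4 arrays were below 0 at 2 d and at 7 d, as 14.7% and 10.8% of the probes measured on all 4 arrays were. Of the 369 probes on all 12 arrays, 3.25% were below 0 on at least 11 as deposited, and Eaat2 had the 55th lowest mean. The exact two-sided sign-flip permutation test gave p = 0.000977, where 0.000488 is the smallest possible, with no adjustment for the other probes. In limma over 1156 probes, where 24 passed (2.08%), Eaat2 did not (adjusted p = 0.152). Leaving out 1 array at a time, the mean as deposited ranged from -0.42 to -0.27, the smallest without 7 d replicate 3, and the adjusted p from 0.148 to 0.257 in limma.

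A fit of both dye orientations, added after the values were seen, split each gene's deposited ratios into a part that keeps its sign and a part that turns with the orientation. For Eaat2 the part that keeps its sign was -0.38 ± 0.14 (SE, n = 12 arrays; adjusted p = 0.170 in limma), and the part that turns was 0.08 ± 0.14 (adjusted p = 0.956). If the deposited ratios are Cy5 over Cy3, the turning part is the drug difference and the other part is the dye's; if they are treated over control, it is the other way round. Of 1156 probes, 27 (2.34%) passed for the part that keeps its sign and 0 (0%) for the part that turns. Eaat2 passed in neither.

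**Figure D3:**
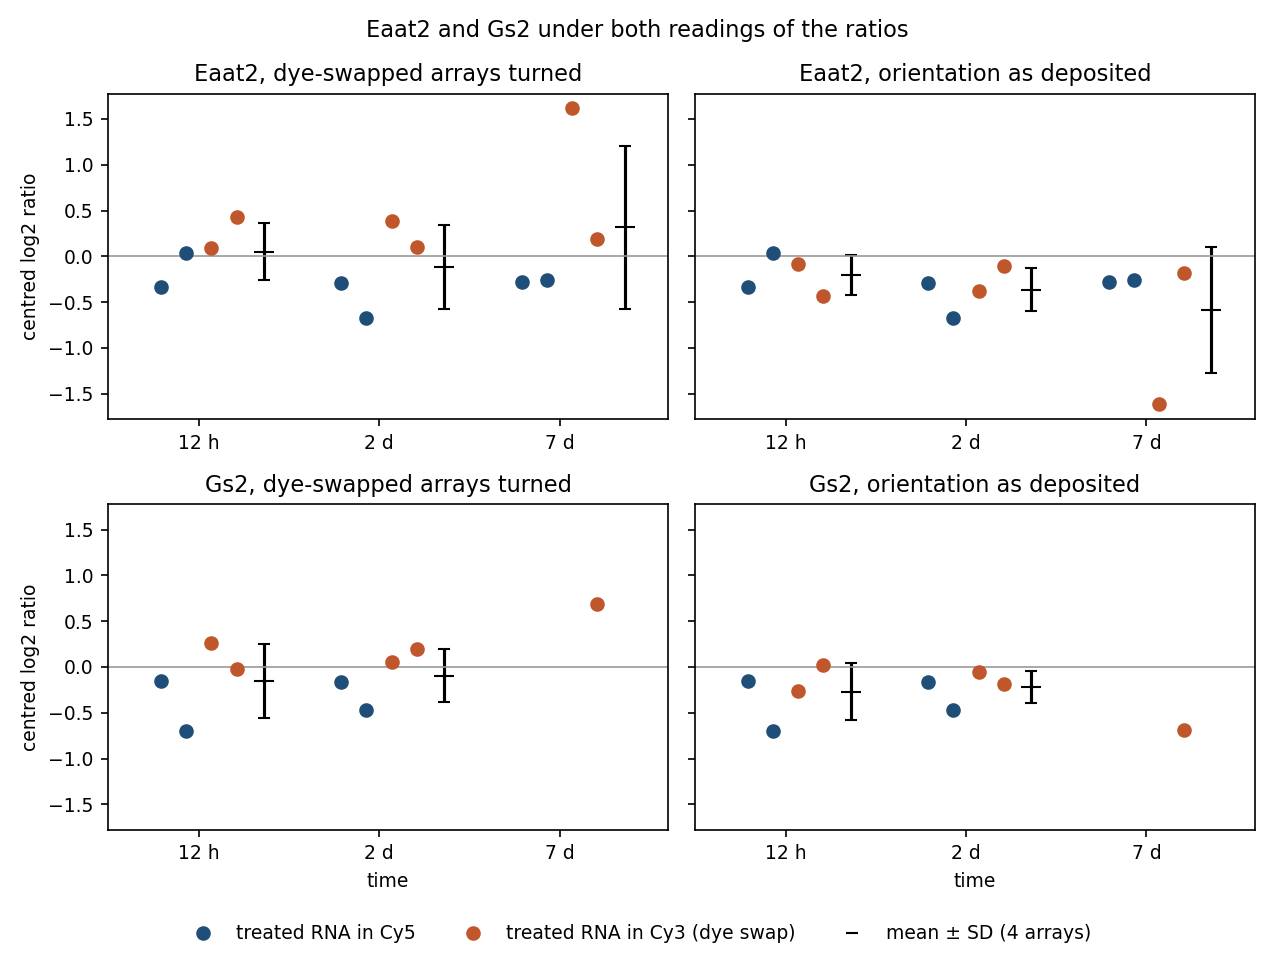
Centred log2 ratio (y axis) by time (x axis) for Eaat2 (top) and Gs2 (bottom), with dye-swapped arrays turned (left) and as deposited (right). Each point is 1 array, blue with the treated RNA in Cy5 and orange with it in Cy3, and bars are mean ± SD over 4 arrays. As deposited, 11 of 12 Eaat2 points and 8 of 9 Gs2 points lie below 0.

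Hdc, the histidine decarboxylase that makes histamine, stayed close to 0 at 12 h. Its centred ratios were 0.18, -0.13, 0.26 and -0.34 on replicates 1 to 4. Each dye orientation held 1 array above and 1 below 0. The mean was -0.01 ± 0.27 (SD, n = 4; adjusted p = 0.991 in limma), and 0.03 ± 0.27 as deposited. Without centring it was 0.50, where the median of all 1283 probes was 0.47. At 7 d the only array, Cy5-treated replicate 2, gave -0.13. Of the 17 photoreceptor markers listed, 9 matched a probe and 4 to 6 had a value on each 12 h array. Their list median ran from 0.03 to 0.42 over the 12 h arrays, or from -0.40 to 0.42 as deposited, and their part in the Hdc value was not tested.

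nAChRbeta1, a subunit of nicotinic acetylcholine receptors, lay below 0 on all 4 arrays at 12 h. Its centred ratios were -0.19, -0.25, -0.32 and -0.73 on replicates 1 to 4. The mean was -0.37 ± 0.25 (SD, n = 4), larger in size than its SD, but it did not pass (adjusted p = 0.867 in limma). Of 981 probes on all 4 arrays, 9.79% were below 0 on every one. The Cy5-treated arrays alone averaged -0.22. As deposited, the dye-swapped arrays read 0.32 and 0.73 and the mean turned to 0.15 ± 0.46, and without centring it was 0.13. The 2 spots of nAChRbeta1 on replicate 2 read 1.29 and -0.09 before centring. With the first spot only, the 12 h mean was -0.11. At 7 d, dye-swapped replicate 4 gave 0.52, or -0.52 as deposited.

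At 12 h, 4 of the 6 genes (GluClalpha, Eaat2, Hdc and nAChRbeta1) had the 3 arrays needed for the test, and 0 passed, where 0 of 1283 probes passed (0%) and 4.52% had an unadjusted p under 0.05. At 2 d only Eaat2 was tested; 0 of 1001 probes passed (0%) and 1.6% were under 0.05 unadjusted. At 7 d, Gad1 and Eaat2 were tested; 0 of 865 probes passed (0%) and 3.93% were under 0.05 unadjusted. The median over all probes tested was -0.05, -0.06 and 0.11 at 12 h, 2 d and 7 d, against 0.47, -0.17 and -0.23 without centring. None of the 6 genes had an unadjusted p under 0.05 at any time in the main orientation.

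Between times, Eaat2 and Gad1 could be compared. Eaat2 stood 0.17 ± 0.45 (SE) lower at 2 d than at 12 h on the log2 scale (difference -0.17, adjusted p = 0.993 in limma). Its difference of 7 d minus 2 d was 0.44 ± 0.46 (SE, adjusted p = 0.887), and that of 7 d minus 12 h was 0.26 ± 0.45 (SE, adjusted p = 0.956). For Gad1, 7 d minus 12 h was -0.26 ± 0.59 (SE, n = 3 and 2 arrays, adjusted p = 0.964), and it was -0.55 without 7 d replicate 3, -0.13 without 7 d replicate 2 and -0.0821 without 7 d replicate 1. None of these differences was larger than its standard error. In these 3 comparisons 0 of 991, 0 of 869 and 0 of 1193 probes passed (0% each), and 3.63%, 3.22% and 4.36% had an unadjusted p under 0.05.

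Of the 37 other transmitter genes that matched a probe, 12 had no value and 25 had at least 1. Gs2, Gdh, t and DopEcR had 3 or more arrays at a time, and 0 of these 4 passed in either direction. Gs2, a glutamine synthetase that turns glutamate into glutamine, was measured on 9 arrays. Its centred ratios were -0.15, -0.70, 0.26 and -0.03 on replicates 1 to 4 at 12 h, and -0.16, -0.47, 0.06 and 0.19 at 2 d. The means were -0.16 ± 0.40 at 12 h and -0.10 ± 0.29 at 2 d (SD, n = 4 each). At 7 d the only array, dye-swapped replicate 4, gave 0.69. Over all times, the 4 Cy5-treated arrays averaged -0.37 and the 5 dye-swapped arrays averaged 0.23. Without centring the 12 h mean turned to 0.35. As deposited, Gs2 was below 0 on 8 of 9 arrays, which 10.9% of 110 probes on 9 arrays were. Its part that keeps its sign was -0.30 ± 0.13 (SE, n = 9 arrays; adjusted p = 0.263 in limma).

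Gdh, the glutamate dehydrogenase, stood at 0.19, 0.09, 0.42 and -0.14 on replicates 1 to 4 at 12 h. The mean was 0.14 ± 0.23 (SD), which was 0.0478 without replicate 3 and 0.23 without replicate 4. As deposited the Gdh mean was 0.0024 ± 0.28, and turned but not centred it was 0.645. At 7 d the only array with Gdh, dye-swapped replicate 4, gave 0.84. The gene t (tan), whose enzyme frees histamine from its beta-alanine conjugate, stood at 0.30, 0.31, -0.53 and -0.24 at 12 h, a mean of -0.04 ± 0.42. As deposited, t at 12 h read 0.30, 0.31, 0.53 and 0.24. The mean of 0.35 ± 0.13 did not pass (adjusted p = 0.710 in limma). Turned but not centred, the mean was 0.46. At 2 d, t averaged -0.19 ± 0.30, and at 7 d its only array, dye-swapped replicate 4, gave 1.24. DopEcR, a receptor for dopamine and ecdysteroids, stood at -0.23, -0.65, -1.28 and -0.36 on replicates 1 to 4 at 12 h. All 4 arrays lay below 0, as did 9.79% of the 981 probes measured on all 4. The mean was -0.63 ± 0.47 (adjusted p = 0.867 in limma), and as deposited it turned to 0.19 ± 0.84. At 7 d the only array, dye-swapped replicate 3, gave 1.01, or -1.01 as deposited. The second DopEcR probe read -1.01 at 12 h and 0.22 at 7 d, on 1 dye-swapped array each.

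The other genes with a value were measured on 1 to 3 arrays. For GABA and glutamate they were Gabat, Gs1, gb, GluRIIA, mGluR and Ekar. For histamine they were e and CarT, and for acetylcholine ChT, Ace, nAChRalpha2, nAChRalpha4, nAChRbeta2 and nAChRbeta3. For amines they were Ddc, DAT, Pu, 5-HT1A, 5-HT2A, 5-HT7 and Octbeta2R. Of the 9 neuron markers listed, only nSyb and Rbp9 matched a probe, and each had a value on 2 arrays. The listed markers elav, brp and Syt1 matched no probe with a single symbol, so the neural share of the heads could not be followed.

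Duplicate spots bear on how far a single array can be read. Both spots were measured in all 35 array values of the 6 genes. They differed by a median of 0.31 on the log2 scale, from 0.02 to 1.38, against a median of 0.38 over all spot pairs. Eaat2 had the smallest median gap of the 6 genes, 0.11, with a widest gap of 0.92 on 12 h replicate 3, and Hdc had a median gap of 0.52. In 3 of the 35 values the 2 spots had opposite signs before centring, 1 each for Gad1, Hdc and nAChRbeta1. More pairs lay on either side of the array median, which is 0 after centring, and these included Eaat2 and Lcch3. On 12 h replicate 3 the Eaat2 spots read -1.24 and -0.32 around a median of -0.69. On 12 h replicate 4 the Lcch3 spots read -1.02 and -0.36 around a median of -0.56. The size of the Hdc mean at 12 h was smaller than its median spot gap.

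**Figure D4:**
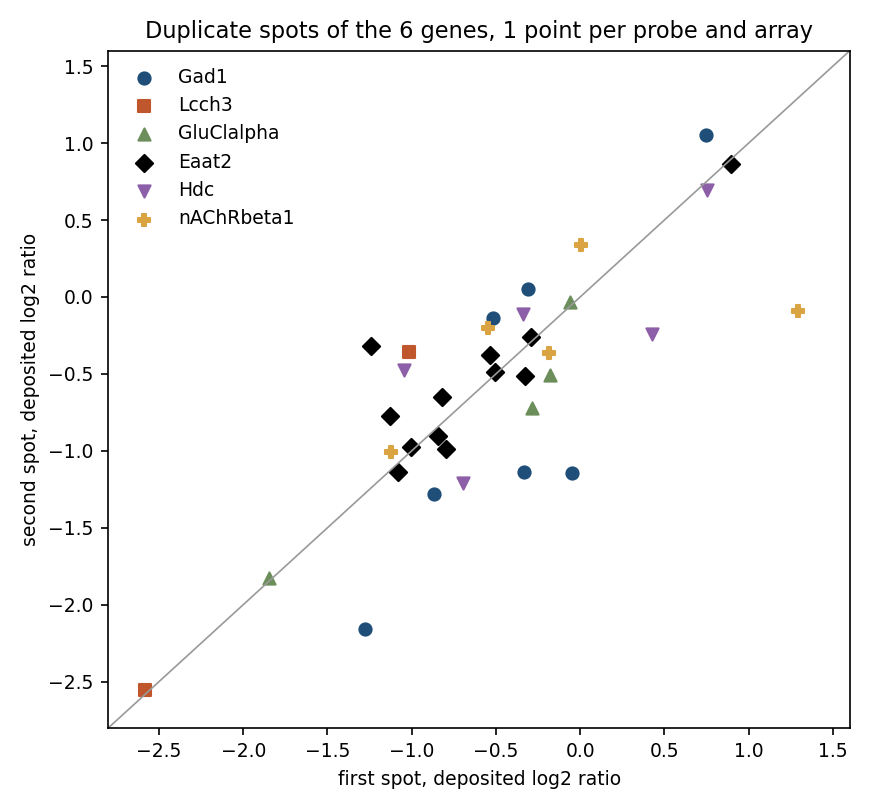
Deposited log2 ratio of the first spot (x axis) against the second (y axis) for each probe and array of the 6 genes, 35 points in all; the line marks equal values. Of the 12 Eaat2 points, the one farthest from the line is 12 h replicate 3, at -1.24 and -0.32, and the point farthest from it is nAChRbeta1 at 1.29 and -0.09.

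The nearest patterns could be sought for Eaat2 only, over 252 genes that shared at least 6 arrays with it. The highest Pearson correlations of centred ratios were with RpS28b, a ribosomal protein gene (r = 0.97 over 7 arrays), sxe2, a lipase gene (r = 0.97 over 6 arrays), and eIF3f1, a translation initiation factor gene (r = 0.97 over 7 arrays). As deposited, the same pairs gave 0.90, 0.67 and 0.94. These are descriptions over few arrays that share the array's centring and the turned sign of the dye-swapped arrays.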

How the data were processed

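RNA of treated and control heads was hybridised together on 12 D12Kv1 cDNA arrays, 1 array per replicate. The authors deposited log2 ratios of the dye channels, quantified with GenePix Pro 6.0 and normalized with Acuity 4.0, per the labels' series design text, which also lists filters on saturation, flags, pixel regression and signal-to-noise. The log base was read from the highest value, 16.61, which fits a round upper limit on the ratio in base 2. Signal over background was not analysed here, and the number of arrays limits the precision. No genome build is given in the sources used here.

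Adjacent spots were averaged to 13824 probes (7558 with 1 gene symbol, 51 with several, 6215 with none). Symbols were updated through the Entrez ID with RefSeq's Release 6 plus ISO1 MT names (7447 of 7558). A gene was represented by its probe with the most arrays. Arrays were centred on their medians and dye-swapped ones turned. Groups came from titles, dyes from the channels' treatment protocols, also for the 2 arrays whose source names call both channels untreated. The design text speaks of 4 biological replicates per time; p-values cover the spread between these arrays. Dye-swapped arrays of 12 h and 7 d carry no number in their labels.

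limma 3.58.1 in R 4.3.3 (lmFit, eBayes, two-sided, Benjamini-Hochberg at 0.05 over all probes tested) was run on probes with at least 3 of 4 arrays per time, 2 arrays in each of 2 times compared, or 6 of 12 arrays over all times, and the fits were tested on simulated data. Named were all 6 genes, other listed transmitter genes on at least 3 arrays of a time (values), listed genes with any value (name), and 3 nearest patterns. Alternatives covered orientation, centring, scale, spots, array minimum, a SAM-type statistic, a dye term and leaving out arrays. Members and lists were chosen with earlier results of these data known.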

Additional observations from a re-analysis of the deposited data

Results flagged for a closer look

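Among 22 sets of 4 array values (genes measured on all 4 arrays of a time, each counted in both orientations), 2 held an array far from the others. Chance alone flags about 1 set in 20 if sets are independent. The 2 orientations of a gene share the same 4 arrays, so the count cannot show an excess. As deposited and centred, Eaat2 at 7 d had replicate 3 at -1.62, against -0.28, -0.26 and -0.19 on replicates 1, 2 and 4. Before centring, replicates 1 to 4 read -0.95, -0.89, -0.87 and -0.74, around array medians of -0.67, -0.63, 0.74 and -0.55. The distance of replicate 3 from the other arrays thus came with the centring. Gdh at 12 h had replicate 3 at -0.42 as deposited, against 0.19, 0.09 and 0.14 on replicates 1, 2 and 4.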

How the results depend on the processing

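In limma, none of the 6 genes passed at any time, between times or over all times under any alternative run; leaving out an array of Gad1 at 7 d or GluClalpha at 12 h left too few arrays for the test. Dye orientation and centring turned the most directions, and the cause was not tested. With the ratios as deposited, the 12 h means turned for Eaat2 (-0.20), Hdc (0.032), nAChRbeta1 (0.15), t (0.35) and DopEcR (0.19), and the 7 d means for Gad1 (-0.30) and Eaat2 (-0.59). Over all times they turned for Eaat2 (-0.38, also in the exact test), t (-0.033) and both Gad1 probes joined (-0.31), and 24 probes passed (18 above and 6 below 0). Between times, as deposited, Eaat2 gave -0.22 for 7 d minus 2 d and -0.38 for 7 d minus 12 h, and Gad1 gave 0.18 for 7 d minus 12 h. Without centring, the 12 h means turned for Gs2 (0.35), Hdc (0.50), t (0.46) and nAChRbeta1 (0.13), and the 7 d means for Gad1 (-0.40) and Eaat2 (-0.0585). Then 10 probes passed at 7 d (1 above and 9 below 0), Gs2 gave -0.54 for 2 d minus 12 h and 0.21 over all times, and Eaat2 gave -0.62 for 7 d minus 12 h. With the first spot only, values turned at 12 h for Gs2 (0.054), Gdh (-0.0325), Hdc (0.0345) and t (0.0055), for Gs2 in 2 d minus 12 h (-0.16) and over all times (0.0615), and for Gad1 in 7 d minus 12 h (0.42). Centred on the probes of all 12 arrays, chosen after seeing the data, they turned at 12 h for Gs2 (0.0418), Hdc (0.19) and t (0.16), and for Gs2 in 2 d minus 12 h (-0.25) and over all times (0.018). Scaling the arrays gave t 0.0083 at 12 h, time as a factor gave Gs2 0.15 over all times, and the Cy5-treated arrays alone gave Eaat2 -0.30.

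Leaving out 1 array at a time, Eaat2 ranged from -0.0723 to 0.18 at 12 h, -0.29 to 0.0642 at 2 d, -0.12 to 0.51 at 7 d and -0.056 to 0.15 over all times. Its differences ranged from -0.34 to 0.0114 (2 d minus 12 h), -0.17 to 0.46 (7 d minus 12 h) and 0.0025 to 0.63 (7 d minus 2 d). Gad1 ranged from -0.55 to -0.0821 in 7 d minus 12 h, and Gdh from 0.0478 to 0.23 at 12 h. Hdc at 12 h ranged from -0.0948 to 0.10, nAChRbeta1 from -0.43 to -0.25 and DopEcR from -0.76 to -0.41. Gs2 ranged from -0.29 to 0.0273 at 12 h, -0.19 to 0.0302 at 2 d, -0.12 to 0.20 for 2 d minus 12 h and -0.13 to 0.0488 over all times, and t from -0.16 to 0.12 at 12 h and -0.12 to 0.11 over all times. In 7 d minus 2 d, 0 to 1 probes passed, 1 of them without 7 d replicate 1. The SAM-type statistic passed 0 probes at each time.

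Same-numbered arrays correlated at 0.00248 to 0.207 in their deviations, with 1 pair under 0.1. Arrays of different numbers correlated at 0.0759 to 0.164, within that range. The numbers were not taken to pair the samples, though these few pairs cannot settle it. With the replicate block on arrays numbered 1 and 2, 0 probes passed, and Eaat2 in 7 d minus 12 h was -0.12, as without the block on the same arrays. The few spots with a value limit what could be tested: 12 of 37 other matched transmitter genes had no value.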
